A study of Bos taurus with 9 samples.

Results

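Transcript levels of 10 histone chaperone genes were examined in single bovine blastocysts with and without the transcription factor TEAD4. The genes were taken by symbol and comprise the histone H3-H4 donors and reserve (*ASF1A*, *ASF1B*, *NASP*), subunits of chromatin assembly factor 1, CAF-1 (*CHAF1A*, *CHAF1B*), subunits of the HIRA complex (*HIRA*, *CABIN1*, *UBN1*) and the pair *DAXX* and *ATRX*. All 10 were present in the table of 21512 genes, and all 10 passed the filter on low values, a median above 0.1 TPM (transcript abundance corrected for gene length and library total) across the 9 libraries, as 14599 genes did in all. Each library came from 1 whole D8 (day 8) blastocyst, inner cell mass and trophectoderm together, produced *in vitro* from slaughterhouse oocytes fertilised with sperm of 1 bull and cultured in synthetic oviduct fluid. The 5 WT embryos came from oocytes injected with *Cas9* mRNA alone, and the 4 KO embryos (genotype TEAD4-/-) from oocytes injected with *Cas9* mRNA and a guide RNA against the fourth exon of *TEAD4*, chosen after genotyping because all their alleles carried frame-disrupting indels. The indels were random, so each KO embryo may carry different alleles. The WT embryos are numbered WT_1 to WT_5. The KO embryos are numbered TE_1 to TE_4, TE being the submitters' name for the *TEAD4* KO group, and values of single embryos are listed in the order of these numbers. No batch, day of collection or embryo sex is given, and nothing states whether embryos of 1 genotype came from the same round of injection.

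Histone chaperones are proteins that escort histones from their synthesis to their deposition on DNA, and so keep free histones from binding DNA and other molecules at random. In the replication-coupled route, NASP holds a soluble reserve of H3-H4, ASF1 hands H3-H4 dimers on, and CAF-1 deposits them behind the replication fork. In the replication-independent route, the HIRA complex receives the variant H3.3 from ASF1A and places it at active genes and nucleosome gaps, while DAXX with the remodeller ATRX places H3.3 at telomeres and other repeats. Both routes are in use in cleavage-stage embryos, which assemble their chromatin anew after fertilisation. The embryos here were at the later blastocyst stage.

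*TEAD4* itself was found in every library, between 18.0 and 54.3 TPM in WT and between 12.5 and 42.8 TPM in KO embryos, ranges that overlap, and a transcript level does not show whether the reading frame is intact. The trophectoderm markers *CDX2*, *GATA3*, *GATA2*, *KRT8*, *KRT18* and *TFAP2C* were above 11 TPM in every library. Of these 6, 4 had a lower and 2 a higher mean of log2(TPM + 1) in KO, with a median log2 fold change of −0.14. The summed level of the 6 was 4013 to 17916 TPM in WT and 6585 to 12378 TPM in KO. That of 5 epiblast markers was 790 to 2074 TPM in WT and 1372 to 2196 TPM in KO, and that of 5 hypoblast markers 81.6 to 152 TPM in WT and 45.4 to 152 TPM in KO. The epiblast sum is mostly *POU5F1*. Of the 5 epiblast markers, 3 had a lower and 2 a higher mean of log2(TPM + 1) in KO, with a median log2 fold change of −0.68. The hypoblast sum is mostly *GATA6*, and all 5 hypoblast markers had a lower mean of log2(TPM + 1) in KO, with a median log2 fold change of −0.59. *GATA4* was below every WT embryo in every KO embryo (1.46 ± 0.284 TPM, SD, n = 5, and 0.640 ± 0.243 TPM, SD, n = 4; adjusted p = 0.684 from limma). Of the epiblast and hypoblast markers, *FGF4* and *HNF4A* were each listed at 0 in 2 libraries. Of 7 markers of cumulus and granulosa cells, *HAS2*, *PTX3*, *TNFAIP6*, *AMH* and *INHBA* were at or below 2.27 TPM throughout, with *PTX3* listed at 0 in 6 libraries, whereas *FSHR* reached 26.8 TPM. Their sum was 14.8 to 27.8 TPM in WT and 2.72 to 26.6 TPM in KO. The sum of 7 oocyte genes was 7.48 to 46.6 TPM in WT and 3.29 to 11.0 TPM in KO, where the upper WT value rests on *OOSP2* in WT_1 (at most 19.4 TPM in the other WT embryos), with *BMP15* listed at 0 in 8 libraries. The part of any of these cells in the results below was not tested. Median-of-ratios size factors, which compare each library with the typical gene, were 0.973 to 1.12 in WT and ranged from 0.776 (TE_1) to 1.26 (TE_2) in KO. Between 14807 and 16678 genes were above 0 TPM in WT libraries and between 14776 and 15375 in KO libraries. TPM keeps no read number, so the number of reads behind each value cannot be had from the table.

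The H3-H4 donors and reserve were the highest of the chaperones by level, and the HIRA complex the lowest. TPM is per transcript length, so levels of different genes can be set side by side. *NASP* was highest, with a mean of 173 TPM over the 9 embryos, above 93.0% of the genes tested. *ASF1A* followed at 123 TPM and *ASF1B* at 51.8 TPM, and each of these steps (*NASP* above *ASF1A*, *ASF1A* above *ASF1B*, *ASF1B* above *CHAF1B*) was found in 9 of 9 embryos. The CAF-1 subunits *CHAF1B* (18.7 TPM) and *CHAF1A* (17.8 TPM) could not be ordered, since *CHAF1B* was the higher in 6 of 9 embryos, nor could *CHAF1A* and *DAXX*, with *CHAF1A* the higher in 6 of 9. *DAXX* (14.6 TPM) was above *ATRX* (9.06 TPM) in 8 of 9 embryos. *ATRX* was above *HIRA* in 8 of 9. The HIRA complex had *HIRA* at 4.69 TPM and *UBN1* at 4.45 TPM, which exchanged places in 4 of 9 embryos (*HIRA* higher in 5), and *CABIN1* at 1.40 TPM, above only 25.2% of the genes tested.

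**Figure D1:**
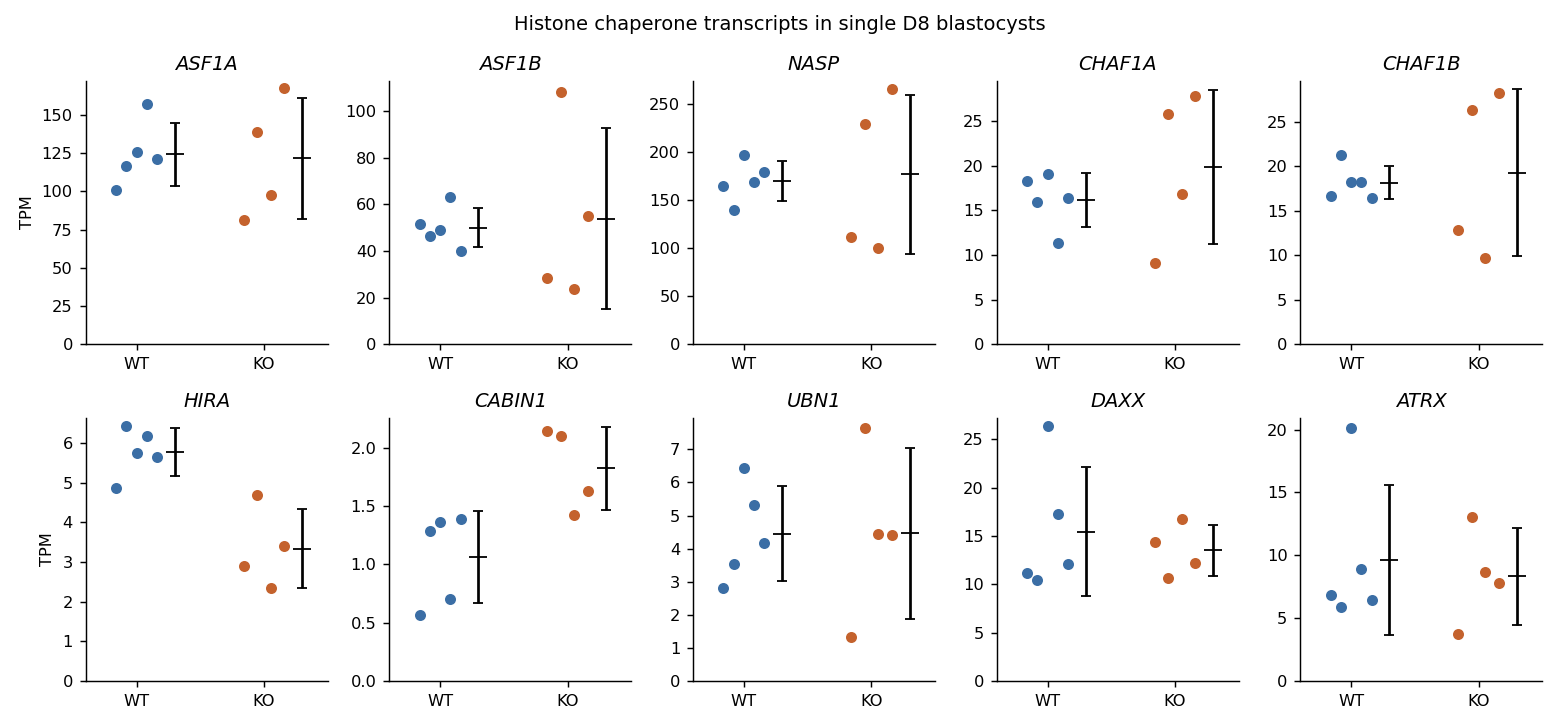
TPM of each chaperone in the 5 WT and 4 KO blastocysts, 1 point per embryo, with the mean and SD of each genotype in black; each vertical axis starts at 0 and has its own scale. Every KO embryo lies below every WT embryo for *HIRA* and above every WT embryo for *CABIN1*, and KO embryos are spread more widely than WT embryos for *ASF1B*, *NASP* and *CHAF1B*.

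WT and KO embryos were compared gene by gene with limma on log2(TPM + 1) across all 14599 genes, and log2 fold changes below are KO minus WT on this scale, which understates the change of low genes. None of the 10 chaperones had an adjusted p-value under 0.05, a level that 0.0205% of all genes tested passed. At an unadjusted p under 0.05, 1 chaperone, *HIRA*, was lower in KO, against 3.83% of all genes, and none was higher, against 2.07% of all genes. All KO embryos lay below all WT embryos for 1 chaperone, *HIRA*, against 1.23% of all genes, and above them for 1, *CABIN1*, against 0.801%. Counting either direction, 1 of the 10 had such a p, against 5.9% of all genes, and 2 of the 10 had ranges that did not overlap, against 2.03%. The median log2 fold change of the 10 was −0.088, beside −0.046 over all genes tested, and the median size of the change regardless of sign was 0.13, beside 0.22. On the scale of log2(TPM + 1), the KO embryos had the higher mean for 2 of the 10, *CHAF1A* and *CABIN1*, against 44.2% of all genes. On the TPM scale, where high embryos weigh more, the KO mean was the higher for 6 of the 10, against 48.5% of all genes, so that *ASF1B*, *NASP*, *CHAF1B* and *UBN1* have opposite signs on these scales. The count on the log scale also rested on single embryos. It was 8 without TE_1, 6 without TE_3, 5 without WT_3 and 1 without TE_4. The median over all genes moved as well. It was 0.038 without TE_1, −0.036 without TE_3, −0.017 without WT_3 and −0.061 without TE_4. The share of all genes with a higher KO mean was not computed for these fits. The 95% interval of the difference lay within a 2-fold change in either direction for 8 of the 10, the exceptions being *HIRA* and *ATRX*, against 56.8% of all genes. With a pseudocount of 0.1 TPM it did so for 5. Leaving out 1 embryo gave 4 (without WT_2 or WT_5), 5 (without TE_3, TE_4 or WT_1), 6 (without TE_1, TE_2 or WT_3) or 8 (without WT_4). No share of all genes was computed for these settings, so the fall from 8 cannot be tied to the chaperones.

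*NASP*, which binds and stores soluble H3-H4, stood at 165, 140, 197, 169 and 179 TPM in the WT embryos, against 112, 230, 100.5 and 266 TPM in the KO embryos. No KO embryo fell within the WT range, TE_1 and TE_3 being below it and TE_2 and TE_4 above it, but after division by the size factors TE_1 lay just inside it (145 against a lowest WT value of 144). The WT mean was 170.0 ± 20.9 TPM (SD, n = 5) and the KO mean 177 ± 83.1 TPM (SD, n = 4), and the log2 fold change was −0.060 (95% interval −0.71 to 0.59, adjusted p = 0.994 from limma). The log scale gives the opposite sign to the TPM means. In whole embryos, fewer cells of a type and less RNA per cell cannot be told apart, here and in each comparison that follows.

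*ASF1A*, the ASF1 form that serves both deposition routes, stood at 101, 117, 126, 157 and 121 TPM in the WT embryos, against 81.3, 139, 97.8 and 168 TPM in the KO embryos. TE_1 and TE_3 were again below every WT embryo, and TE_4 above, but with size factors TE_1 (105) and TE_3 (101) fell inside the WT range of 94.8 to 157. Its log2 fold change was −0.075 (95% interval −0.62 to 0.47, adjusted p = 0.992 from limma). *ASF1B*, the form tied to proliferating cells, stood at 51.4, 46.5, 49.2, 63.2 and 39.9 TPM in the WT embryos, against 28.5, 108, 23.8 and 55.0 TPM in the KO embryos. The highest and the lowest embryo of the whole series for this gene were both KO, TE_2 and TE_3, 4.55-fold apart, whereas the WT embryos differed by at most 1.58-fold. For *ASF1B* the WT mean was 50.0 ± 8.51 TPM (SD, n = 5) and the KO mean 53.9 ± 38.8 TPM (SD, n = 4), and its log2 fold change was −0.13 (95% interval −0.98 to 0.71, adjusted p = 0.987 from limma). The sign was opposite to that of the TPM means, and the value was −0.55 without TE_2 and 0.16 without TE_3.

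The large CAF-1 subunits were also more widely spread among KO embryos on the TPM scale. *CHAF1A*, the subunit that binds the sliding clamp PCNA, stood at 18.3, 15.9, 19.0, 11.3 and 16.4 TPM in the WT embryos, against 9.11, 25.8, 16.9 and 27.8 TPM in the KO embryos. TE_2 and TE_4 were above every WT embryo, TE_1 was below and TE_3 within the WT range. With size factors TE_1 (11.7) was inside the WT range of 11.3 to 17.2 and TE_3 (17.5) just above it, so that 3 KO embryos were above and 0 below. *CHAF1B*, the subunit that contacts ASF1, stood at 16.7, 21.2, 18.2, 18.2 and 16.5 TPM in the WT embryos, against 12.9, 26.4, 9.73 and 28.2 TPM in the KO embryos. As for *NASP*, TE_1 and TE_3 were below every WT embryo and TE_2 and TE_4 above, whereas with size factors TE_1 (16.6) and TE_2 (20.8) were inside the WT range of 15.7 to 21.8. The log2 fold change of *CHAF1A* was 0.19 (95% interval −0.55 to 0.93, adjusted p = 0.982 from limma), which was 0.50 without TE_1 and −0.0038 without TE_4. That of *CHAF1B* was −0.040 (95% interval −0.76 to 0.68, adjusted p = 0.994 from limma).

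*HIRA*, the scaffold of the complex that deposits H3.3, was lower in the KO blastocysts. All 5 hypoblast, 3 of the 5 epiblast and 4 of the 6 trophectoderm markers also had a lower mean of log2(TPM + 1) in KO. Of these markers 0 had an adjusted p under 0.05 in limma. The epiblast marker *POU5F1* was higher in KO (log2 fold change 0.57). Over all genes tested, 44.2% had a higher mean in KO. The part of these cells in the difference was not tested. *HIRA* stood at 4.86, 6.43, 5.75, 6.19 and 5.64 TPM in the WT embryos, against 2.90, 4.69, 2.35 and 3.39 TPM in the KO embryos. The ranges did not overlap, although the highest KO embryo, TE_2, at 4.69 TPM, came close to the lowest WT embryo, WT_1 at 4.86 TPM. The WT mean was 5.77 ± 0.605 TPM (SD, n = 5) and the KO mean 3.33 ± 0.998 TPM (SD, n = 4), which gives a ratio of 0.577 and a log2 fold change of −0.67 (SE 0.28, 95% interval −1.29 to −0.047). An exact two-sided permutation test over the 126 splits of the embryos gave p = 0.0159 for *HIRA*, the smallest p this design allows, with all 4 KO embryos below all 5 WT embryos. The difference did not pass adjustment over all genes (unadjusted p = 0.0372, adjusted p = 0.808 from limma). Leaving out 1 embryo at a time gave values between −0.81 and −0.55, and the unadjusted p stayed under 0.05 only without TE_2 or without WT_1.

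*CABIN1*, another subunit of the complex, went the other way. It stood at 0.568, 1.29, 1.36, 0.699 and 1.39 TPM in the WT embryos, against 2.14, 2.10, 1.42 and 1.63 TPM in the KO embryos. The lowest KO embryo, TE_3, was only just above the highest WT embryo, WT_5, and after quantile normalization the ranges overlapped (lowest KO embryo at 1.31, highest WT embryo at 1.53). For *CABIN1* the WT mean was 1.06 ± 0.396 TPM (SD, n = 5) and the KO mean 1.82 ± 0.354 TPM (SD, n = 4), which gives a ratio of 1.72 and a log2 fold change of 0.47 (SE 0.23, 95% interval −0.041 to 0.98). The exact two-sided permutation test again gave p = 0.0159, with all 4 KO embryos above all 5 WT embryos, and adjustment over all genes did not keep the difference (unadjusted p = 0.0685, adjusted p = 0.850 from limma). At levels near 1 TPM the fold change depended on the pseudocount, and it was 0.79 with a pseudocount of 0.1 TPM. Both permutation tests are single tests among the 10 chaperones and carry no adjustment for that number.

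*UBN1*, the subunit through which the HIRA complex recognises H3.3, did not follow either partner. It stood at 2.80, 3.54, 6.43, 5.31 and 4.16 TPM in the WT embryos, against 1.33, 7.64, 4.45 and 4.41 TPM in the KO embryos. TE_1 was the lowest and TE_2 the highest embryo of the series, and the other KO embryos lay inside the WT range. The log2 fold change of *UBN1* was −0.10 (95% interval −0.97 to 0.77, adjusted p = 0.992 from limma), and it was 0.26 without TE_1 and −0.37 without TE_2.

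**Figure D2:**
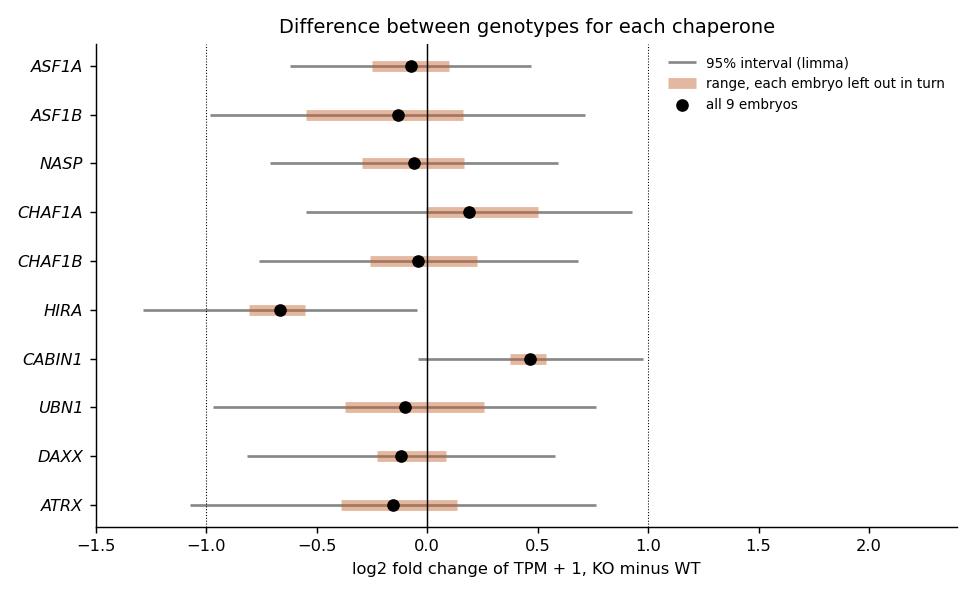
Log2 fold change of TPM + 1, KO minus WT, for each chaperone: the point is the value over all 9 embryos, the grey line its 95% interval from limma and the orange bar the range when each embryo is left out in turn; dotted lines mark a 2-fold change. Only the intervals of *HIRA* and *ATRX* cross a dotted line, and the orange bars of *HIRA* (−0.81 to −0.55) and *CABIN1* (0.37 to 0.54) are the ones that stay on 1 side of 0.

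The H3.3 chaperone *DAXX* stood at 11.2, 10.5, 26.4, 17.3 and 12.1 TPM in the WT embryos, against 14.4, 10.7, 16.8 and 12.2 TPM in the KO embryos. All KO embryos lay within the WT range, which was widened by WT_3, and the log2 fold change was −0.12 (95% interval −0.81 to 0.58, adjusted p = 0.987 from limma). Its partner *ATRX*, an X-linked gene for a chromatin remodeller, stood at 6.88, 5.87, 20.1, 8.92 and 6.45 TPM in the WT embryos, against 3.71, 13.1, 8.69 and 7.81 TPM in the KO embryos. WT_3 was the highest embryo for both genes. The log2 fold change of *ATRX* was −0.16 (95% interval −1.08 to 0.76, adjusted p = 0.987 from limma), and it was 0.12 without WT_3 and 0.14 without TE_1. That of *DAXX* was 0.086 without WT_3. The sex of the embryos was not determined here.

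The SD of log2(TPM + 1) was larger among KO than among WT embryos for 7 of the 10 chaperones, which is close to the 70.1% of all genes tested for which it was. For the same 7 it was more than 2 times as large, against 29.3% of all genes. They were all 5 genes of H3-H4 supply and CAF-1, *HIRA* and *UBN1*. Of them *ASF1A* and *UBN1* were just over this cut, with ratios of 2.04 and 2.06. The ratio of the SDs was 5.17 for *CHAF1B*, 4.13 for *ASF1B* and 3.92 for *NASP*, beside a median of 1.42 over all genes, and it was under 1 for *CABIN1* (0.630), *DAXX* (0.501) and *ATRX* (0.993). *NASP* and *CHAF1B* had 2 KO embryos above and 2 below every WT embryo, an arrangement found in 4.12% of all genes. With size factors 0 of the 10 had 2 KO embryos above and 2 below, against 2.61% of all genes. At least 3 KO embryos lay outside the WT range for 7 of the 10, against 31.1% of all genes. These 7 held *CABIN1* in place of *UBN1*. With size factors the number was 5, and the share of all genes was not computed there. For *HIRA* and *CABIN1* all 4 KO embryos lay on 1 side of the WT range, which is not a wider spread. The wider spread in KO was noticed in these values and was not tested. It moved with the library scaling. With values divided by the size factors, which are lowest in TE_1 and highest in TE_2, the SD was more than 2 times as large for 3 chaperones (*ASF1B*, *NASP* and *CHAF1B*), against 26.1% of all genes. *CHAF1A* was just under this cut, with a ratio of 1.98, and *UBN1* (1.64), *HIRA* (1.20) and *ASF1A* (1.15) were further below it. After quantile normalization the number of chaperones past the cut was also 3, and without TE_1 it was 4. For these settings the share of all genes was not computed.

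**Figure D3:**
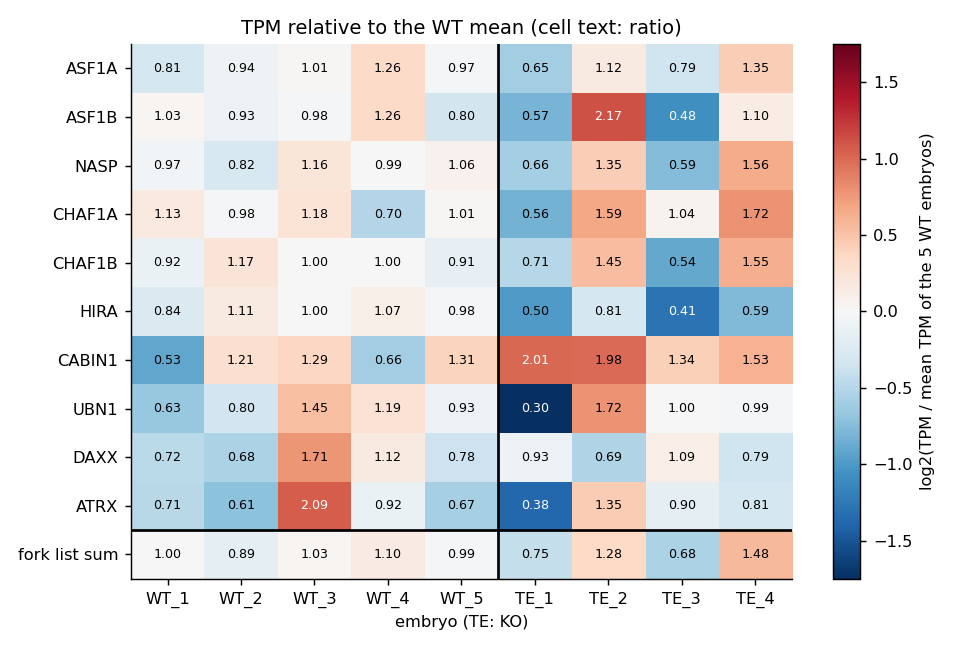
TPM of each chaperone in each embryo divided by the mean of the 5 WT embryos (the ratio is written in the cell and the colour gives its log2); the bottom row is the sum of 12 replication fork genes. For *ASF1A*, *ASF1B*, *NASP* and *CHAF1B*, TE_1 and TE_3 are below 0.8 and TE_2 and TE_4 above 1, as in the bottom row (0.75, 1.28, 0.68 and 1.48 in TE_1 to TE_4).

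Replication fork genes gave the background for these embryos. The list holds *PCNA*, 5 subunits of its loader RFC and the 6 subunits of the MCM2-7 helicase, all 12 of which were tested. Their summed level was 822 to 1021 TPM in WT and 692, 1185, 632 and 1372 TPM in TE_1 to TE_4, so that the same KO embryos were below and above the WT range as for *NASP* and *CHAF1B*. With size factors TE_3 (654) stayed below and TE_4 (1306) above the WT range of 844 to 1022, while TE_1 (892) and TE_2 (937) fell inside it. Of the 12 genes, 6 had 2 KO embryos above and 2 below every WT embryo, and 1 with size factors. The SD of log2(TPM + 1) was more than 2 times as large in KO for 7 of the 12, and also for 7 with size factors. None of the 12 passed the adjusted threshold or an unadjusted p under 0.05 in limma. A higher mean in KO was found for 3 and a lower one for 9, and the median log2 fold change was −0.084. The largest were those of *RFC1* (−0.37), *RFC3* (0.26), *MCM3* (0.23) and *RFC2* (−0.22). Summed over *ASF1A*, *ASF1B*, *NASP*, *CHAF1A* and *CHAF1B*, the chaperones had a WT mean of 379 ± 34.4 TPM (SD, n = 5) and a KO mean of 392 ± 168 TPM (SD, n = 4), with TE_1 at 244.0, TE_2 at 529, TE_3 at 249 and TE_4 at 544 TPM.

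Ratios within an embryo do not depend on the scaling of its library. The ratio of *CABIN1* to *HIRA* was 0.117, 0.200, 0.238, 0.113 and 0.247 in WT_1 to WT_5 and 0.737, 0.448, 0.606 and 0.480 in the KO embryos. The genotypes did not overlap, with means of 0.183 ± 0.0644 (SD, n = 5) and 0.568 ± 0.132 (SD, n = 4). This ratio combines the pair of genes whose ranges did not overlap, in opposite directions, so it had to separate the genotypes. It adds no support to the differences of the single genes and is given without a test. The other ratios overlapped between genotypes. *UBN1* to *HIRA* was 0.551 to 1.12 in WT and above 1.12 in 3 KO embryos (1.63, 1.89 and 1.30 in TE_2, TE_3 and TE_4), but 0.460 in TE_1. *CHAF1A* to *CHAF1B* had a WT mean of 0.901 ± 0.205 (SD, n = 5) and a KO mean of 1.10 ± 0.441 (SD, n = 4), with TE_3 highest at 1.73. *ASF1B* to *ASF1A* was 0.406 ± 0.0650 (SD, n = 5) and 0.425 ± 0.240 (SD, n = 4), with TE_2 highest at 0.779 and TE_3 lowest at 0.244. *DAXX* to *ATRX* was 1.31 to 1.93 in WT and 3.88, 0.818, 1.93 and 1.56 in TE_1 to TE_4.

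**Figure D4:**
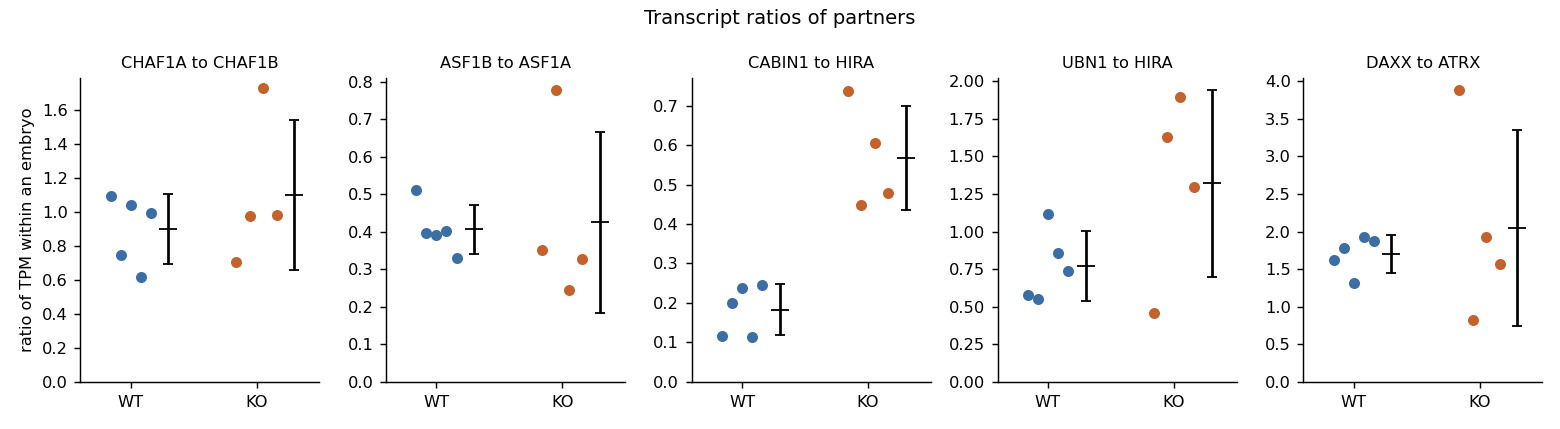
Ratio of TPM of partner genes within each embryo, 1 point per embryo, with the mean and SD of each genotype in black and a separate axis from 0 in each panel. WT and KO embryos are apart for *CABIN1* to *HIRA* (0.113 to 0.247 in WT, 0.448 to 0.737 in KO), as the separate ranges of these genes require, and overlap in the other 4 panels.

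The genes that work with these chaperones showed no difference past the threshold. Of 17 partners, 16 were tested (*SP100* is not analysed here). They include the CAF-1 and HAT1 subunits *RBBP4* and *RBBP7*, the ASF1 kinases *TLK1* and *TLK2*, the HIRA complex subunit *UBN2* and the fork factor *MCM2*, which is also in the fork list. By limma, 0 had an adjusted p or an unadjusted p under 0.05. A higher mean in KO was found for 7 and a lower one for 9, and the median log2 fold change was −0.0018. The largest differences were those of *TLK1* (22.7 ± 2.36 TPM, SD, n = 5, and 17.5 ± 7.82 TPM, SD, n = 4; log2 fold change −0.45), *MORC3*, an ATPase of PML bodies (−0.35), *IPO4*, the importin that carries H3-H4 with ASF1 (0.28), and *TONSL*, which binds new H4 at forks (0.23). Among 18 other histone chaperones 0 passed either p in limma, 11 had a higher and 7 a lower mean in KO, and the median was 0.083. *NPM3*, a nucleoplasmin (0.56), *HJURP*, the chaperone of the centromeric variant CENPA (0.43), and *SUPT6H*, a chaperone of transcribed chromatin (0.38), were among those with the largest differences.

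The histones that these chaperones carry were the other measure set beside them. The replication-dependent H3 and H4 genes (20 symbols starting with H3C or H4C) encode the cargo of CAF-1. Their mRNAs end in a stem-loop and mostly lack a poly(A) tail, while the libraries were made from poly(A)-selected RNA, and members of 1 cluster are so alike that reads may be split between them. Their summed level was 22.5, 19.9, 22.0, 31.5 and 21.1 TPM in WT_1 to WT_5 and 75.9, 936, 78.7 and 43.9 TPM in TE_1 to TE_4. All KO embryos were above all WT embryos, with TE_2 far above the rest. Of the 14 genes tested, 14 had a higher mean in KO and 0 an adjusted p under 0.05 in limma. No chaperone had the KO embryos in the order of this sum. TE_2, with the highest sum, had the highest *ASF1B* of all embryos, but TE_4, with the lowest sum in KO, came next for this gene. TE_4, which had the highest *NASP*, *ASF1A*, *CHAF1A* and *CHAF1B*, had the lowest H3 and H4 sum of the KO embryos, and TE_1 and TE_3, which had the lowest *NASP*, had H3 and H4 sums above every WT embryo. The 5 supply and CAF-1 transcripts together amounted to 13.3 to 18.6 times the H3 and H4 sum in WT and to 3.22, 0.566, 3.16 and 12.4 times in TE_1 to TE_4.

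**Figure D5:**
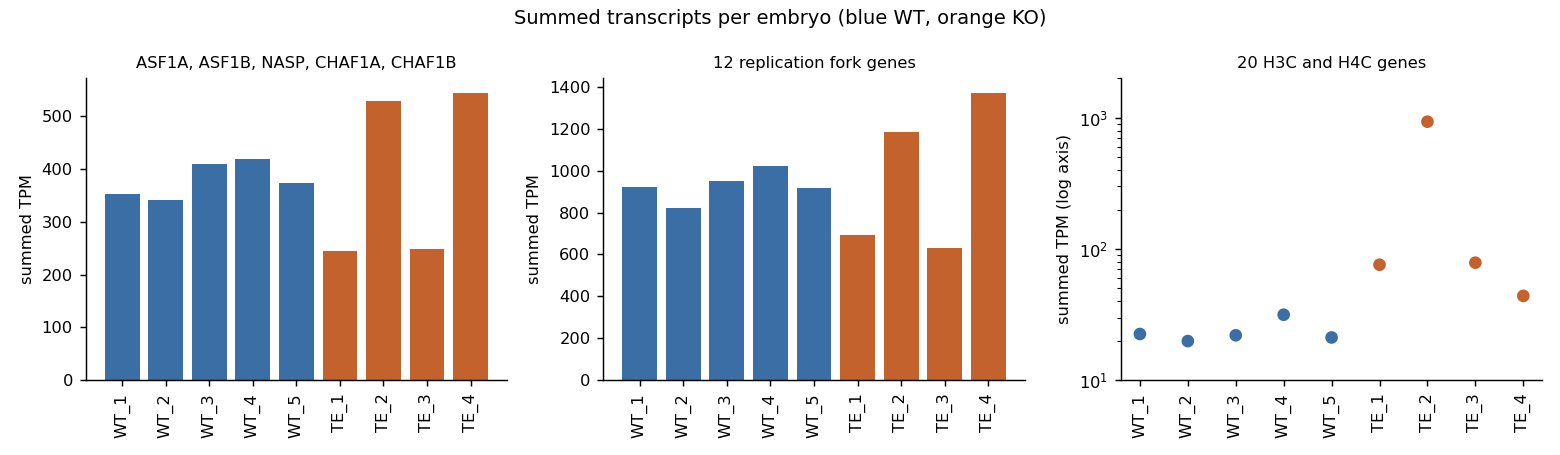
Summed TPM per embryo of 5 supply and CAF-1 chaperones (left), 12 replication fork genes (middle) and 20 H3C and H4C genes (right, log axis), WT in blue and KO in orange. In the left and middle panels TE_1 and TE_3 are below and TE_2 and TE_4 above all WT embryos, whereas in the right panel all KO embryos (43.9 to 936 TPM) are above all WT embryos (19.9 to 31.5 TPM).

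The cargo of the HIRA complex and of DAXX is H3.3, encoded by *H3-3A* and *H3-3B*. Their sum had a WT mean of 2015 ± 681 TPM (SD, n = 5) and a KO mean of 2019 ± 481 TPM (SD, n = 4), with overlapping ranges. *H3-3A* had a log2 fold change of −0.19 and *H3-3B* of 0.21. Of 10 replacement histone genes 8 were tested. By limma 0 passed an adjusted or an unadjusted p of 0.05, and 4 had a higher and 4 a lower mean in KO. The changes of *H2AZ1* (−0.25) and *MACROH2A2* (0.19) were, with those of the H3.3 genes, the largest.

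For each chaperone the gene with the most similar profile over the 9 embryos was looked up among 11610 others with a mean above 1 TPM, by Pearson's r of log2(TPM + 1). It was *COA7* for *ASF1A*, *NFYA* for *ASF1B*, *GEMIN5* for *NASP*, *JMJD4* for *CHAF1A*, *PTCD3* for *CHAF1B*, *GGA2* for *HIRA*, *HEXIM2* for *CABIN1*, *TMEM200B* for *DAXX* and *KDM5C* for *ATRX*, with r between 0.933 (*DAXX*) and 0.981 (*ASF1A*). For *UBN1* it was ENSBTAG00000049896, which has no symbol. These are the best of many genes over 9 libraries that share genotype and library scaling, and no chaperone was the nearest gene of another.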

How the data were processed

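Values are TPM per gene as deposited by the authors, 1 library per blastocyst. The authors pseudoaligned reads after quality control, and each library sums to 1000000. The submitters' processing notes name FastQC, fastp and kallisto; annotation and build are not given in the sources used here, so no coordinates are given. The labels describe another kit and sequencer than the methods of the study. Columns were assigned to genotype by name, all 9 were used, and which column is which deposited sample is not stated. Whether embryos are independent beyond being separate is not stated, so p-values measure the spread between these embryos.

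Genes with a median above 0.1 TPM were fitted with limma 3.58.1 (R 4.3.3; trend, log2(TPM + 1), Benjamini-Hochberg over 14599 genes, threshold 0.05), since counts cannot be had from TPM. The fit was tested on simulated data. Single genes were also compared by exact two-sided permutation, with all splits enumerated in Python 3.11.15 and the calculation checked on example values against scipy 1.17.1. The members and lists were chosen with earlier results of these data known. All 10 members are named, and of each list the 4 genes with the largest change and any whose genotypes did not overlap or that passed the threshold; 1 of these genes is not reported here. All 10 symbols match 1 RefSeq gene of ARS-UCD2.0. Searches of promoter and protein sequences that had been planned were not run.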

Additional observations from a re-analysis of the deposited data

How the results depend on the processing

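No chaperone passed an adjusted p of 0.05 under any of the 16 alternatives run (lowest 0.495, *HIRA* without TE_2), and the directions of *HIRA* and *CABIN1* held in all 16. After quantile normalization the unadjusted limma p of *HIRA* was 0.0517 and that of *CABIN1* 0.0414. With array weights the log2 fold change of *CABIN1* was 0.32 (unadjusted p = 0.213 from limma). The number of genes called over the whole table, 3, was 8 with a pseudocount of 0.1 TPM or a median above 1 TPM, 5 with size factors or without trend and 6 after quantile normalization. It was 0 without TE_1, TE_2, TE_4, WT_3 or WT_4, 1 without WT_5 and 10 without TE_3. Chaperones with a higher KO mean ranged from 1 to 8 when embryos were left out, while the median log2 fold change of all genes ranged from −0.125 to 0.038. Counts chosen after seeing the data moved as follows: chaperones with an SD over 2 times larger in KO from 7 to 3 (size factors, quantile normalization) and 4 to 7 (embryos left out), and those with separate ranges from 2 to 1 (quantile normalization), and those with 2 KO embryos above and 2 below every WT embryo from 2 to 0 (size factors).

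Small differences changed sign: *ASF1B* (0.011), *DAXX* (0.027) and *ATRX* (0.054) with array weights, and *CHAF1B* with size factors (0.013) or quantile normalization (0.021). Leaving out embryos gave −0.25 to 0.098 for *ASF1A*, −0.55 to 0.16 for *ASF1B*, −0.30 to 0.17 for *NASP*, −0.0038 to 0.50 for *CHAF1A*, −0.26 to 0.22 for *CHAF1B*, −0.37 to 0.26 for *UBN1*, −0.23 to 0.086 for *DAXX* and −0.39 to 0.14 for *ATRX*. The cause was not tested. No paired analysis was possible because the sample titles share no replicate numbers between genotypes. Read numbers per gene cannot be had from TPM. Whether the study's own comparison kept TE_4 is not clear. Without it *HIRA* was at −0.68 and *CABIN1* at 0.50.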
